A study of Mus musculus with 12 samples.

Results

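Transcripts of 37 genes of sugar breakdown and its control were followed in mouse macrophages given increasing amounts of interferon gamma (IFNγ). The genes cover glucose uptake, the enzymes of glycolysis, the making and export of lactate, the pentose phosphate pathway, and the transcription factor subunit HIF1A with 2 of its prolyl hydroxylases and its target Vegfa. They were chosen by name from a fixed list, and every one of the 37 was found once among the 46729 entries of the deposited expression table. That list and the neighbouring ones below were chosen with earlier results of these data known. Counts set beside the share of all entries are thus not independent of these data. Tkt and Pfkfb2 lie in entries merged with overlapping genes (Tkt with the microRNA gene Mir3076, Pfkfb2 with C4bp-ps1 and Gm29427), whose reads the table does not separate.

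The cells were macrophages grown from femur and tibia marrow of C57BL6 mice over 10 days, fed 1 ng/ml interleukin-3 at first and throughout an L-929 conditioned medium that supplies colony-stimulating factor 1. All 4 groups share this culture. One group stayed untreated and the others were given IFNγ for 8 h, at 0.2, 2 or 20 U/ml. No volume is written on the 20 U label, which was taken to mean U/ml. The labels list 12 libraries, 3 per group, without saying whether they came from separate animals or cultures, and the deposited table gives 1 value per gene and group, so no difference below has a replicate check, an error or a p-value.

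Glycolysis splits glucose into pyruvate, and its flux is held mainly at glucose uptake, hexokinase and phosphofructokinase, while most of the other enzymes work near equilibrium. Lactate dehydrogenase turns pyruvate into lactate and so renews the cofactor that the pathway needs, and the pentose phosphate pathway branches off after hexokinase to make NADPH and ribose. HIF1A, stabilised when the prolyl hydroxylases are slowed, drives transcription of many of these genes. Macrophages activated by IFNγ or bacterial products are known for raised glycolysis.

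Values are FPKM (read fragments scaled by transcript length and library size), so levels of different genes can be set side by side. Depth is unknown. Median FPKM over 11580 entries with a mean of at least 1 FPKM and a value above 0 in each group lay between 12.3 and 13.3 in the 4 groups. Ratios are differences of log2(FPKM + 1), which understate differences of low genes, and "higher" or "lower" below means a log2 ratio of at least 1 in size. The response gene Irf1 was at 34.1, 89.1, 293 and 511 FPKM in dose order. The macrophage gene Csf1r was at 349, 340.2, 416 and 418 FPKM. Other macrophage markers were above it or below it at 20 U/ml relative to untreated cells. Untreated and 20 U/ml values were 32.3 and 348 FPKM for Fcgr1, 151 and 188 for Adgre1, and 13.5 and 14.0 for Mertk. They were 1814 and 1503 FPKM for Cd68, 301 and 256 for Cd14, and 71.7 and 63.1 for the merged entry of Itgam. Another macrophage marker, Lyz2, was listed at 0 in every group but the 20 U/ml one, which can be a failed estimate. Of the 19 markers of other cell types (T and NK, B, neutrophil, erythroid, stromal and endothelial), 16 stayed under 1 FPKM in each group. S100a8, Ms4a1 and Pecam1 did not, and S100a8, which activated macrophages can also express, went from 13.3 FPKM untreated to 30.4 at 20 U/ml. The 4 neutrophil markers summed to 14.3 and 31.7 FPKM, nearly all of it S100a8. Untreated and 20 U/ml values were 0.168 and 0.173 FPKM for Elane, 0.875 and 0.940 for Mpo, and 0 and 0.124 for Ly6g. The 4 T and NK markers were at 0 throughout. The part of these cells in the values below was not tested, and in bulk RNA fewer cells of a type and less RNA per cell cannot be told apart.

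At 20 U/ml, 10 of the 37 genes were higher than in untreated cells and 0 were lower. The same rule took in 6.51% (higher) and 2.94% (lower) of the 11580 entries, and the median log2 ratio was 0.51 for the 37 genes and 0.01 for all entries. The 10 genes, Hk3, Hk2, Pfkp, Slc2a6, Pfkfb3, Slc2a1, Hif1a, Slc16a3, Vegfa and Pdk3 in order of ratio, comprise a pair of hexose transporters, a pair of hexokinases, a phosphofructokinase subunit, a PFKFB enzyme, a lactate exporter, a pyruvate dehydrogenase kinase, Hif1a and its target Vegfa. Just inside the rule was Pdk3 (1.04) and just outside it Pfkl (0.99). At 2 U/ml only Hk3 passed among the 37, against 2.50% of all entries higher and 0.760% lower. At 2 U/ml the median was 0.15 for the 37 genes and 0.01 for all entries. None of the 37 passed at 0.2 U/ml, where 5.23% of all entries were higher and 0.328% lower.

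**Figure D1:**
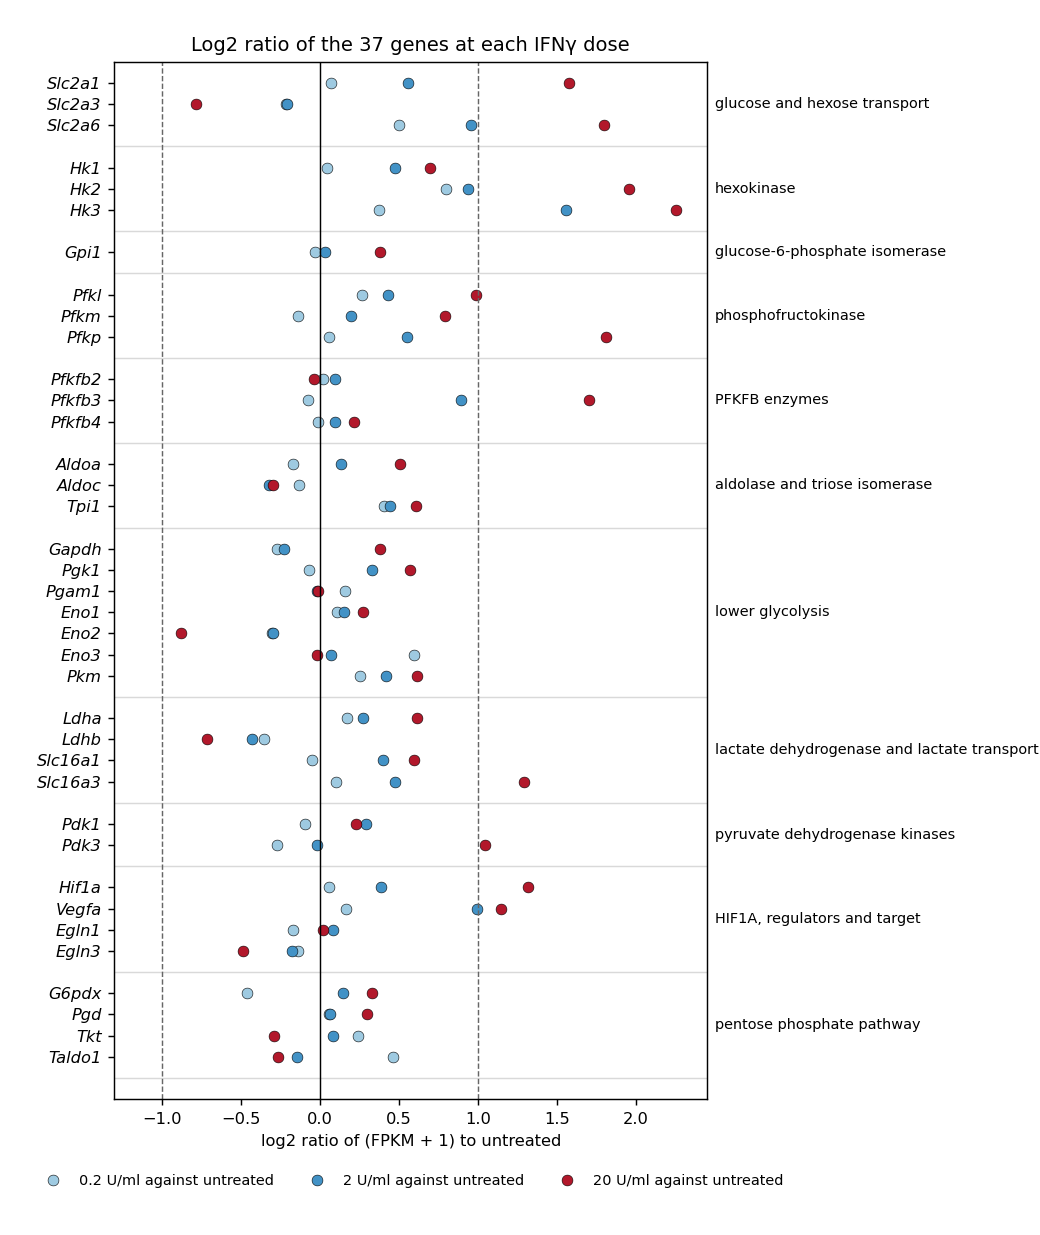
Log2 ratio of (FPKM + 1) to untreated cells (x axis) for each of the 37 genes (y axis, grouped by pathway step) at 0.2, 2 and 20 U/ml IFNγ, 1 value per group; dashed lines mark the size rule at -1 and 1. The 10 points to the right of 1 at 20 U/ml belong to glucose transport, hexokinase, phosphofructokinase, Pfkfb3, Slc16a3, Pdk3, Hif1a and Vegfa, and Hk3 alone is to the right of 1 at 2 U/ml.

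Hexose transporter genes split into a pair that was higher and 1 that was not. Slc2a1, which encodes the basal glucose transporter GLUT1 (chromosome 4, 119108711 to 119137983, GRCm38), was at 33.6 FPKM untreated and at 35.3, 49.999 and 102 FPKM with 0.2, 2 and 20 U/ml. That is 3.04-fold between the ends of the series, a log2 ratio of 1.58, and most of the difference lies between 2 and 20 U/ml. Slc2a6, which encodes GLUT6, a transporter family member found on inner membranes (chromosome 2, 27021363 to 27027998), was at 27.4 FPKM untreated and at 39.2, 54.1 and 97.8 FPKM with 0.2, 2 and 20 U/ml. Its log2 ratios were 0.50, 0.96 and 1.80, so its value was above the untreated one from the lowest dose on. Slc2a3, encoding the high-affinity transporter GLUT3, was at 3.52 FPKM untreated and at 2.90, 2.91 and 1.63 FPKM with 0.2, 2 and 20 U/ml, a log2 ratio of -0.78 that did not pass with a pseudocount of 1 and did with 0.1 (-1.07). Summed over the 3 genes, transporter FPKM was 64.6 untreated and 202 at 20 U/ml, and Slc2a3 made up 5.46% of the sum untreated and 0.809% at 20 U/ml.

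Hexokinases, which trap glucose in the cell by phosphorylating it, held the 2 largest ratios of the 37 genes. Hk3, the form prominent in myeloid cells (chromosome 13, 55005985 to 55021385), was at 98.5 FPKM untreated and at 128, 292 and 473 FPKM with 0.2, 2 and 20 U/ml, 4.80-fold between the ends of the series. With a log2 ratio of 2.25 at 20 U/ml it ranked 221 of 11580 entries, and at 2 U/ml it was already at 1.56. The locus given for Hk3 in the authors' deposited table is 4.67 times the length of the gene, and the coding gene Unc5a overlaps Hk3. Hk2, the inducible form bound to mitochondria (chromosome 6, 82725025 to 82774454), was at 22.1 FPKM untreated and at 39.2, 43.2 and 88.6 FPKM with 0.2, 2 and 20 U/ml, a log2 ratio of 1.96. Its step pattern was not that of Hk3, since the value at 2 U/ml was close to that at 0.2 U/ml. Hk1, the form found in most tissues, was at 21.8 FPKM untreated and at 22.6, 30.7 and 35.98 FPKM with 0.2, 2 and 20 U/ml and did not pass (0.70). Hexokinase FPKM in all went from 142 to 598, and Hk3 supplied 69.2% of it untreated and 79.2% at 20 U/ml.

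The isomerase gene Gpi1, next in the pathway, was at 395 FPKM untreated and at 387, 405 and 514 FPKM with 0.2, 2 and 20 U/ml. Phosphofructokinase, the committed step of glycolysis, is built from liver, muscle and platelet type subunits. The platelet type Pfkp (chromosome 13, 6579768 to 6648777) was at 50.7 FPKM untreated and at 52.7, 74.7 and 180.1 FPKM with 0.2, 2 and 20 U/ml, a log2 ratio of 1.81. The coding gene Pitrm1 overlaps Pfkp. The liver type Pfkl was at 32.8 FPKM untreated and at 39.6, 44.6 and 66.1 FPKM with 0.2, 2 and 20 U/ml; its ratio of 0.99 was just under the rule and 1.01 with a pseudocount of 0.1. The muscle type Pfkm was lowest throughout, at 6.69, 6.002, 7.80 and 12.3 FPKM in dose order (0.79 at 20 U/ml). All 3 subunit genes thus had their highest value at 20 U/ml, and the share of Pfkp in their sum went from 56.2% to 69.7%, while that of Pfkl went from 36.4% to 25.6%.

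PFKFB enzymes make and break fructose 2,6-bisphosphate, the strongest activator of phosphofructokinase, and Pfkfb3 encodes the form that mostly makes it. Pfkfb3 (chromosome 2, 11471433 to 11554077) was at 3.61 FPKM untreated and at 3.38, 7.58 and 14.03 FPKM with 0.2, 2 and 20 U/ml, 3.88-fold between the ends of the series and a log2 ratio of 1.70. Untreated and 0.2 U/ml values lay together, and the 2 and 20 U/ml values above them. Pfkfb4 was at 11.9, 11.8, 12.8 and 14.02 FPKM in dose order, and the merged entry of Pfkfb2 at 1.85, 1.89, 2.05 and 1.78 FPKM. Untreated cells had 68.5% of the PFKFB FPKM from Pfkfb4 and 20.8% from Pfkfb3, and at 20 U/ml each of them supplied 47.0%.

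**Figure D2:**
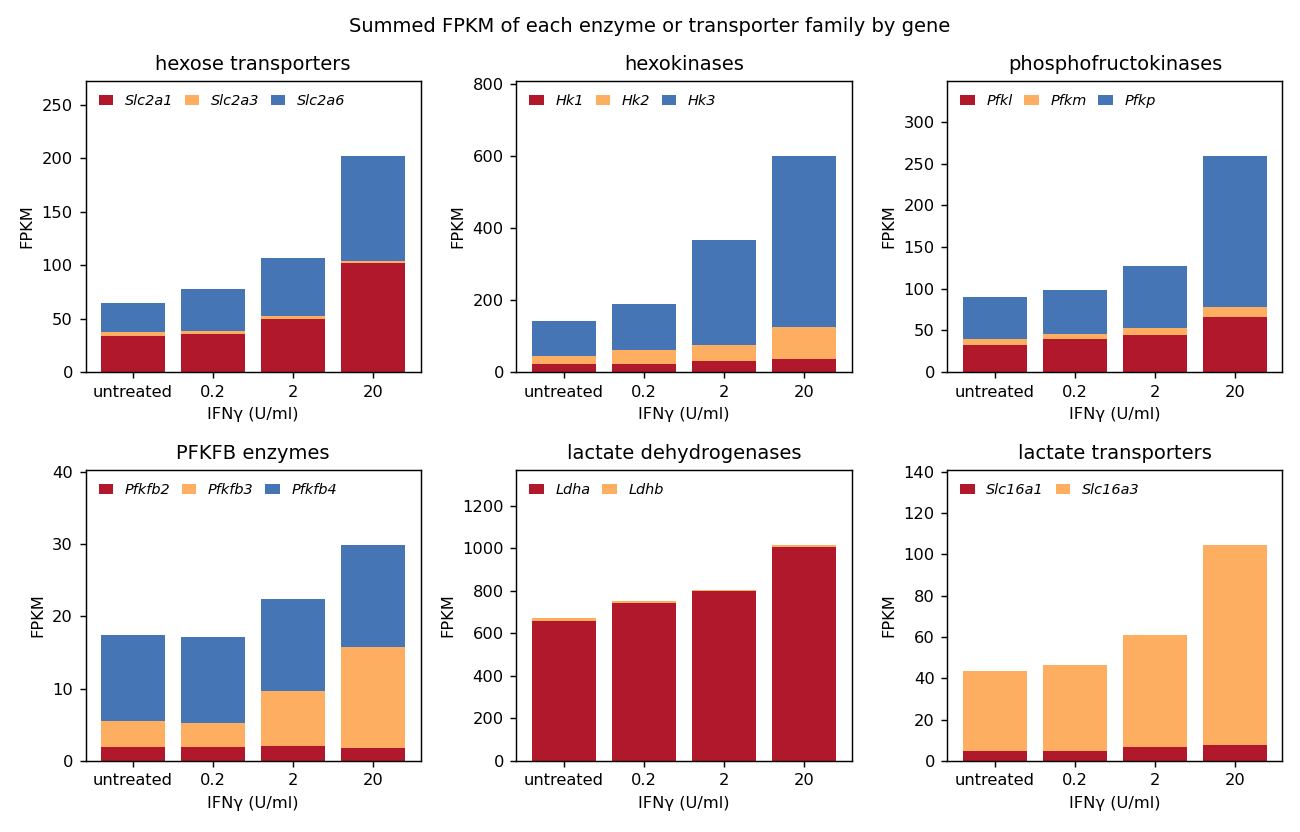
Stacked FPKM (y axis, from 0) of the genes of 6 enzyme or transporter families in untreated cells and at 0.2, 2 and 20 U/ml IFNγ (x axis), 1 value per group and no error bars. Hexokinase FPKM goes from 142 to 598, mostly Hk3, whereas lactate dehydrogenase goes from 669.9 to 1014, nearly all Ldha.

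The abundant enzymes from aldolase to pyruvate kinase stayed below the size rule at each dose. Aldoa, the main aldolase, was at 933 FPKM untreated and at 830.5, 1024 and 1326 FPKM with 0.2, 2 and 20 U/ml. Tpi1, the triose isomerase, was at 351, 465, 478 and 534 FPKM in dose order (0.61 at 20 U/ml). Its log2 ratio at 0.2 U/ml was 0.41, and 0.01 with quantile normalization. Gapdh, the dehydrogenase often used as a reference gene, was at 1435 FPKM untreated and at 1188, 1223 and 1865 FPKM with 0.2, 2 and 20 U/ml. Its values at the 2 smaller doses were thus below the untreated one, and its log2 ratio was 0.38 at 20 U/ml. Pgk1, a kinase that forms ATP, was at 163, 155, 205 and 242 FPKM. Pkm, the pyruvate kinase gene whose 2 splice forms are not separated in the table, was at 853, 1018, 1141 and 1307 FPKM, the largest ratio of this stretch at 0.62. Pgam1, the mutase, was at 394, 439.8, 388 and 390.1 FPKM, 0.991 times the untreated level at 20 U/ml. Eno1, the main enolase, was at 453, 489, 504 and 547 FPKM (0.27).

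The minor forms of the same steps also stayed inside the rule. Eno2, the enolase typical of neurons, was at 14.98 FPKM untreated and at 11.9, 12.02 and 7.69 FPKM with 0.2, 2 and 20 U/ml, a log2 ratio of -0.88 that passed only after upper-quartile scaling (-1.01). Eno3, the muscle form, was at 4.43, 7.20, 4.70 and 4.35 FPKM in dose order, highest at 0.2 U/ml. Aldoc, the brain form of aldolase, was at 25.7, 23.3, 20.4 and 20.7 FPKM. These 3 genes made up small shares of their steps: Eno2 held 3.17% of enolase FPKM untreated and 1.37% at 20 U/ml, and Aldoc 2.68% and 1.54% of aldolase FPKM. Taken over Gpi1, Aldoa, Tpi1, Gapdh, Pgk1, Pgam1, Eno1, Pkm and Ldha, the ratio of FPKM at 20 U/ml to untreated ran from 0.991 to 1.53, against 3.04 for Slc2a1, 4.02 for Hk2, 4.80 for Hk3 and 3.55 for Pfkp. Slc2a1, Hk2, Hk3 and Pfkp had passed the size rule at this dose, as had Slc2a6 (3.57). The other genes of their steps had ratios of 0.463 (Slc2a3), 1.65 (Hk1), 1.84 (Pfkm) and 2.02 (Pfkl).

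Untreated levels of the 10 genes that passed had a median of 24.8 FPKM, and those of the other 27 a median of 32.8 FPKM. All 12 of the 37 genes above 100 FPKM in untreated cells, a level chosen after the values were seen, stayed inside the size rule, while of the 1196 entries above that level in all, 3.26% were higher and 3.68% lower at 20 U/ml, so that a count of 0 among 12 is near the background. The median log2 ratio was 0.38 for these 12 genes and -0.12 for the 1196 entries. Hk3, at 98.5 FPKM untreated, was just under that level.

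**Figure D3:**
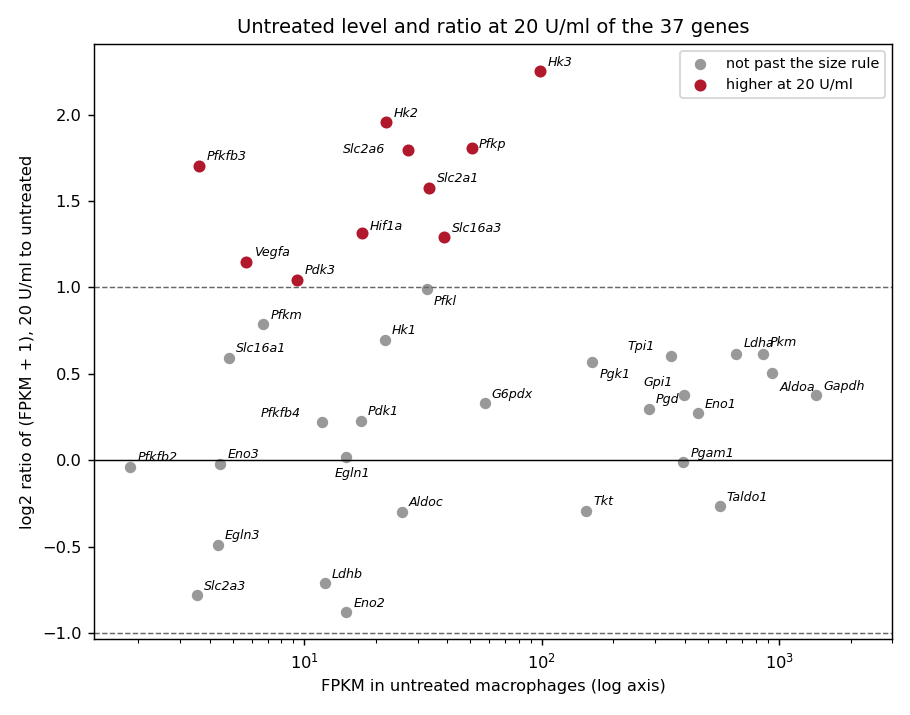
FPKM in untreated macrophages (x axis, log scale) against the log2 ratio of (FPKM + 1) at 20 U/ml (y axis) for the 37 genes, 1 value each; dashed lines mark -1 and 1. The 10 red points that are higher at 20 U/ml lie between 3.61 and 98.5 FPKM untreated, and no gene lies below -1.

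Lactate genes differed between enzyme and exporter. Slc16a3, which encodes the lactate exporter MCT4 (chromosome 11, 120948480 to 120960868), was at 38.9 FPKM untreated and at 41.9, 54.5 and 96.8 FPKM with 0.2, 2 and 20 U/ml, a log2 ratio of 1.29. Slc16a1, encoding the related transporter MCT1, was at 4.80, 4.60, 6.65 and 7.75 FPKM in dose order and did not pass (0.59). Slc16a3 was the dominant form of the pair in each group, with 89.02% of their FPKM untreated and 92.6% at 20 U/ml. Ldha, whose subunit favours making lactate, was at 658 FPKM untreated and at 739.7, 796 and 1006 FPKM with 0.2, 2 and 20 U/ml, a log2 ratio of 0.61. Ldhb, whose subunit favours using it, was at 12.2 FPKM untreated and at 9.31, 8.79 and 7.05 FPKM with 0.2, 2 and 20 U/ml, each value below the one before, though inside the rule (-0.71).

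Pyruvate dehydrogenase kinases block the entry of pyruvate into the mitochondrial cycle. Pdk3 (chromosome X, 93764607 to 93832201) was at 9.33 FPKM untreated and at 7.55, 9.20 and 20.3 FPKM with 0.2, 2 and 20 U/ml, so that the first 3 values lay together and the 20 U/ml value apart. Pdk1, a known HIF1A target, was at 17.3, 16.1, 21.4 and 20.4 FPKM in dose order, a log2 ratio of 0.23. The ratio of Pdk3 (1.04) was under the rule with upper-quartile scaling (0.91) and with quantile normalization (0.93).

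Hif1a (chromosome 12, 73901375 to 73947530) was at 17.5 FPKM untreated and at 18.2, 23.2 and 44.96 FPKM with 0.2, 2 and 20 U/ml, a log2 ratio of 1.31, with most of the difference above 2 U/ml. An annotated coding gene, Gm49321, overlaps it on the same strand. Vegfa, the angiogenic growth factor and classical HIF1A target (chromosome 17, 46016993 to 46032369), was at 5.70 FPKM untreated and at 6.53, 12.3 and 13.8 FPKM with 0.2, 2 and 20 U/ml. Its ratio was 0.99 at 2 U/ml and 1.15 at 20 U/ml, so unlike Hif1a its value at 2 U/ml was already near that at 20 U/ml. The hydroxylases that mark HIF1A for destruction stayed inside the rule. Egln1 was at 14.9, 13.1, 15.9 and 15.1 FPKM in dose order, and Egln3, itself a HIF1A target, at 4.31, 3.83, 3.69 and 2.78 FPKM, each below the one before and inside the rule (-0.49). The sign of Egln1 (0.02) turned with upper-quartile scaling (-0.12) and with quantile normalization (-0.09), the only such turn among the 37 genes at 20 U/ml.

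None of the 4 pentose phosphate genes passed at any dose. G6pdx, the entry enzyme of the oxidative branch, was at 57.5 FPKM untreated and at 41.4, 63.8 and 72.5 FPKM with 0.2, 2 and 20 U/ml, lowest at the smallest dose. Pgd, the second NADPH-forming enzyme, was at 282, 294, 295 and 348 FPKM in dose order. The non-oxidative enzymes, which shuffle carbon between sugar phosphates, lay below untreated values at 20 U/ml, with Taldo1 at 562, 775, 508 and 466 FPKM and the merged entry of Tkt at 154, 182, 163 and 126 FPKM. Both had their highest value at 0.2 U/ml. The log2 ratios at 20 U/ml were 0.33 for G6pdx and 0.30 for Pgd in the oxidative branch, and -0.29 for Tkt and -0.27 for Taldo1 in the non-oxidative branch.

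Across doses, 15 of the 37 genes had at each successive dose a value above the one before, of any size, as did 9.28% of all entries, and 2 (Ldhb and Egln3) had a value below it each time, as did 6.54%. With upper-quartile scaling the 15 became 8, against 6.34% of all entries, and with quantile normalization 6, against 6.70%. Upper-quartile scaling shifts the median ratio of all entries at 0.2 U/ml by -0.10 and at 20 U/ml by -0.12. At 0.2 U/ml the sign of 8 of the 37 ratios turned with it and of 11 with quantile normalization, so small ratios at that dose have no settled direction. Between 2 and 20 U/ml 4 genes were higher, Pfkp (1.26), Pdk3 (1.06), Hk2 (1.02) and Slc2a1 (1.02), against 2.90% of all entries higher and 1.11% lower. With either scaling 1 of them, Pfkp, kept its place. Between 0.2 and 2 U/ml Hk3 was higher (1.18), against 1.51% of entries, and none of the 37 was lower, against 6.26%. For the 10 genes higher at 20 U/ml, the median share of the difference in FPKM that lay between 2 and 20 U/ml was 70.6%, from 18.6% for Vegfa to 101% for Pdk3. It was 57.8% for those of the other 27 genes whose 20 U/ml value was above the untreated one. The 10 genes were picked by their value at 20 U/ml, which also enters this share.

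**Figure D4:**
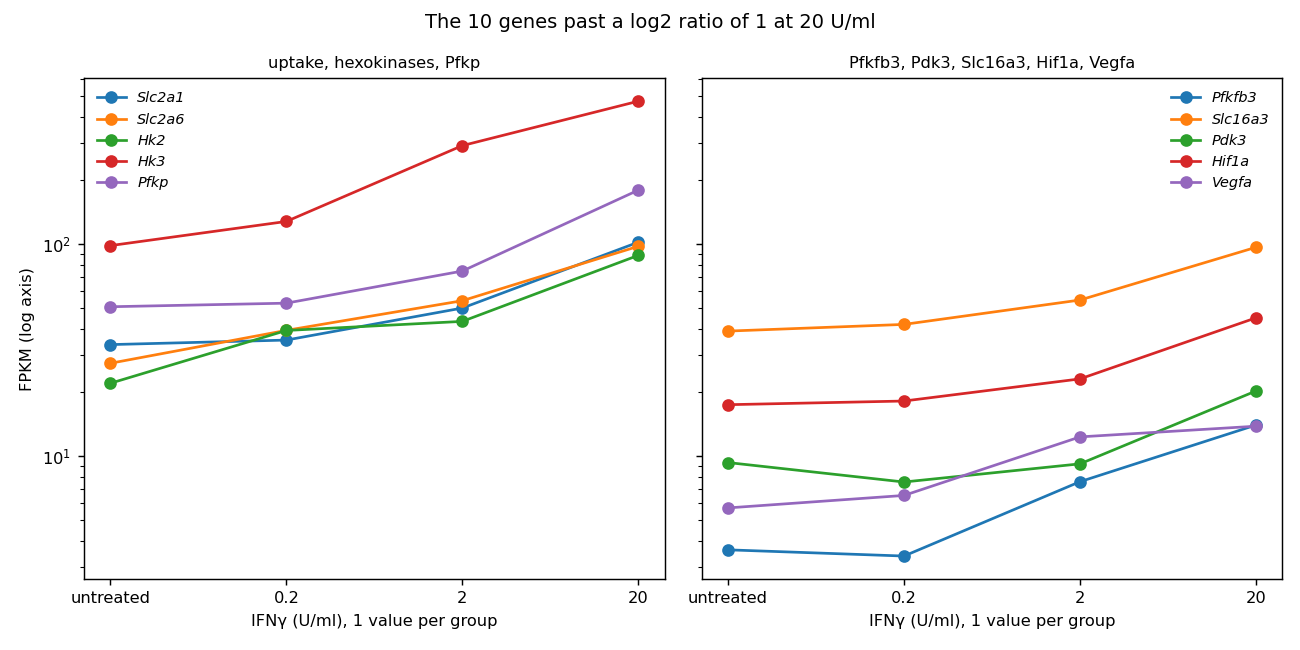
FPKM (y axis, log scale) of the 10 genes that are higher at 20 U/ml, in untreated cells and at 0.2, 2 and 20 U/ml IFNγ (x axis), 1 value per group joined by lines. Hk3 and Vegfa are already well above untreated at 2 U/ml (292 against 98.5 FPKM and 12.3 against 5.70), while Pdk3 is apart at 20 U/ml only (20.3 FPKM).

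Summed by step, FPKM at 20 U/ml was 4.20 times the untreated sum for hexokinases, 3.12 for transporters and 2.87 for phosphofructokinases. It was 1.44 for aldolases with the triose isomerase and 1.32 for the 7 genes from Gapdh to Pkm, and 0.959 for the pentose phosphate genes. The sum over all 37 genes was 7174, 7551, 8009 and 10094 FPKM in dose order. That was 0.932%, 0.736%, 1.02% and 1.12% of the FPKM in the table, so the share was lowest at 0.2 U/ml. The total over all entries also differed between groups, at 769698, 1.026e+06, 783701 and 904993 FPKM in dose order.

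Genes around the pathway were read from 10 further lists, 142 names in all, of which 106 passed the filter. At 20 U/ml 2 of the 106 were higher and 6 lower, or 1.89% and 5.66%, against 6.51% and 2.94% of all entries. No gene passed among 5 other sugar transporters, 8 fructose bisphosphatases and side steps, 10 genes of pyruvate entry into mitochondria, 4 of lactate handling, 10 further pentose phosphate genes, 9 of hexosamine synthesis and 15 of glucose sensing and growth signalling. The sugar phosphate transporter gene Slc37a2 was at 80.4, 92.1, 109 and 131 FPKM in dose order (0.70), and Slc2a8, encoding the transporter GLUT8, at 17.1, 14.1, 13.1 and 9.997 FPKM (-0.72). Adpgk, an ADP-dependent glucokinase and so another way into glycolysis, had a log2 ratio of 0.78, and Galm and Pck2 of -0.48 and 0.44. Pdp1, the phosphatase that opposes the pyruvate dehydrogenase kinases, was at 14.9, 10.6, 9.60 and 8.86 FPKM (-0.69), while Dlat and Pdhx of the pyruvate dehydrogenase complex had ratios of 0.51 and 0.50. The value of Pdp1 was thus lowest at 20 U/ml, where that of Pdk3 was highest, though Pdp1 stayed inside the rule. The ratio of Pdp1 was already -0.45 at 0.2 U/ml, where Pdk3 had its lowest value (7.55 FPKM). Other kinases of this kind differed from Pdk3. Pdk1 was highest at 2 U/ml, and Pdk2 was at 4.81, 4.26, 3.82 and 3.88 FPKM (-0.25).

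For lactate handling the largest ratios were those of Ldhd (-0.81), the D-lactate dehydrogenase, Emb (-0.42) and Slc16a7 (-0.14). H6pd, which makes NADPH in the endoplasmic reticulum, was at 6.51, 6.47, 10.04 and 12.9 FPKM (0.88), beside 0.41 for the epimerase gene Rpe and -0.25 for the merged entry of Pgls. Of 15 glycogen genes 1 was higher and 1 lower (6.67% each), against 6.51% and 2.94% of all entries. Pgm2 was at 16.3, 14.01, 19.7 and 33.7 FPKM (1.00), Pgm2l1 at 9.05, 9.06, 5.35 and 3.55 FPKM (-1.14), and Pygl, the liver glycogen phosphorylase, had a ratio of -0.68. In hexosamine synthesis the ratios were -0.95 for Gnpda1, -0.58 for Ogt and 0.50 for Gfpt1, and among sensing genes -0.91 for Pik3cg, 0.67 for Arrdc4 and 0.52 for Mlx.

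HIF genes made up 6 of the 8 genes of the neighbouring lists that passed, 5 of them lower. Their 2 lists held 14 and 16 of the 106 genes past the filter. Of 14 subunits and regulators 1 was higher and 1 lower (7.14% each), against 6.51% and 2.94% of all entries. Epas1, which encodes HIF2A, the sister subunit of HIF1A, was at 5.66 FPKM untreated and at 3.68, 2.41 and 0.662 FPKM with 0.2, 2 and 20 U/ml, a log2 ratio of -2.003 beside 1.31 for Hif1a. Cited2, which competes with HIF1A for its coactivator, was at 44.8 FPKM untreated and at 30.8, 43.3 and 115 FPKM with 0.2, 2 and 20 U/ml (1.34), and Cul2, part of the ligase that removes HIF1A, had a ratio of 0.87. Of 16 other HIF targets 4 were lower (25%) and 0 higher, against 2.94% and 6.51% of all entries, and the median log2 ratio was 0.12. Cxcr4, the receptor for the chemokine CXCL12, was at 88.6, 58.6, 41.5 and 21.2 FPKM in dose order (-2.01), each value below the one before. Ankrd37 was at 28.8, 28.9, 19.8 and 10.8 FPKM (-1.34) and Bhlhe40, a transcriptional repressor, at 14.9, 13.95, 13.4 and 6.64 FPKM (-1.06). The fourth, Ndrg1, named after its values were seen, had a ratio of -1.02. Targets inside the rule lay on both sides of 0. Examples, also named after their values were seen, are P4ha1 and Bnip3 (0.77 each) and Bnip3l (-0.47).

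**Figure D5:**
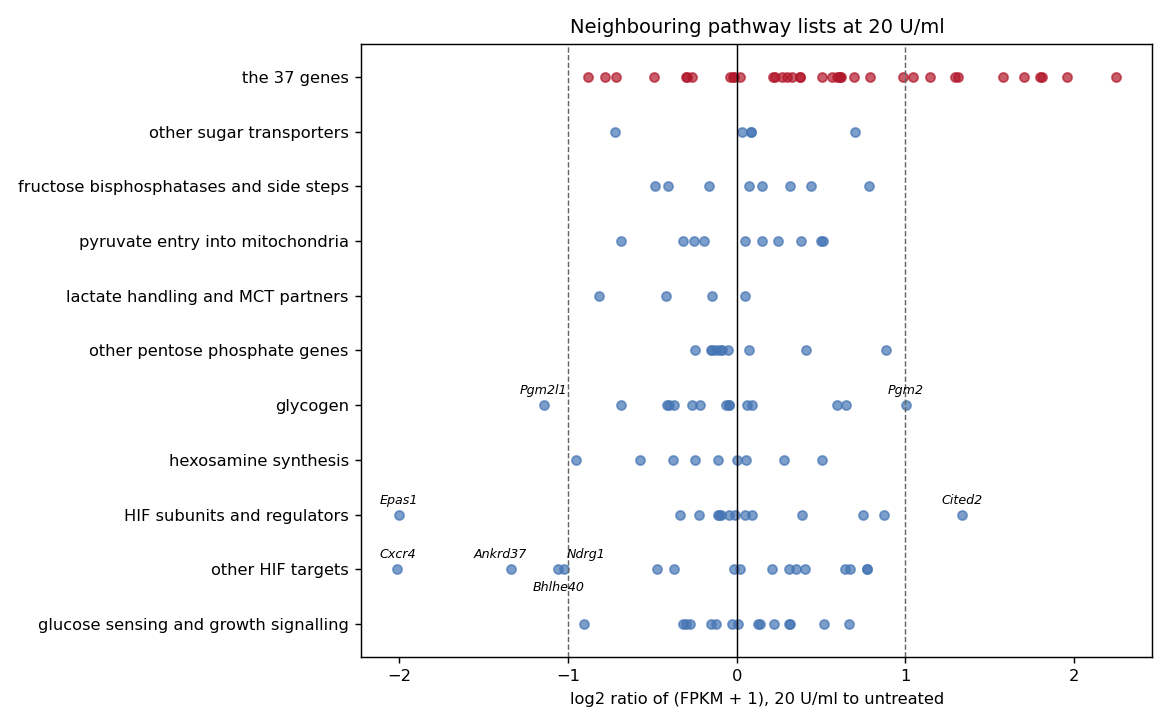
Log2 ratio of (FPKM + 1) at 20 U/ml to untreated (x axis) for the 37 genes (top row, red) and for the genes past the filter in 10 neighbouring lists (blue), 1 value each; dashed lines mark -1 and 1. Epas1 and Cxcr4 lie near -2, and in the neighbouring lists only Cited2 and Pgm2 lie to the right of 1.

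The sequence just before the start of a gene was read for a HIF motif and an interferon motif. RefSeq promoters (GRCm38.p6, 250 bases before to 50 after a start) were matched for 36 of the 37 genes, with 53 promoters. The HIF core was searched as ACGTG or GCGTG and the interferon response element as GAAANNGAAA, each on both strands and with overlapping matches allowed. A HIF core was present in at least 1 promoter of 10 of the 10 genes higher at 20 U/ml and of 23 of the 26 other genes with a promoter, against 46.7% of all 27025 genes. GC content moved with this, with a median of 60.7% in the 53 promoters and 52.7% in all 32851, and its part was not tested. The interferon element was found in 1 of the 10 genes and 0 of the 26, against 3.99% of all genes. A match is a string of letters, not a bound site, and its absence from this window says nothing about the factor.

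Shown as examples are the 250 bases before the start of Slc2a1, for glucose uptake, of Hk2, Hk3 and Pfkp, the 3 largest ratios, with Ldha, which had the most core matches upstream but stayed inside the size rule, and the Vegfa promoter that holds the interferon element; capitals mark the matches, read 5′ to 3′ on the strand of the gene.
Slc2a1, chr4:119108495-119108744 (+ strand): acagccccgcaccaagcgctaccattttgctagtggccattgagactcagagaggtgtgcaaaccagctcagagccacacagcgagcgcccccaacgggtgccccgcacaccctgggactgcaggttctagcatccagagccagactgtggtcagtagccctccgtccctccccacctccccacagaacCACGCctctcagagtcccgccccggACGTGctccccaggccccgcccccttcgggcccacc
Hk2, chr6:82774455-82774704 (- strand): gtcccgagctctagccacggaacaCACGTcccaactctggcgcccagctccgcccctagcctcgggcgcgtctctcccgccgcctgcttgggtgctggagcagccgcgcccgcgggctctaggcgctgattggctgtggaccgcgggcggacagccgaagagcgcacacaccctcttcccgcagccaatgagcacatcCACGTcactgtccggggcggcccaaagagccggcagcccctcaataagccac
Hk3, chr13:55021386-55021635 (- strand): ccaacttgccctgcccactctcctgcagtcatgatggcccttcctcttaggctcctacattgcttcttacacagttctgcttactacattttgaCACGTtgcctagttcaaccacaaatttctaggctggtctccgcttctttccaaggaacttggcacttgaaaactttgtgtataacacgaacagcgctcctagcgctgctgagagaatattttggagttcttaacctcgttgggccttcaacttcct
Pfkp, chr13:6648772-6649021 (- strand): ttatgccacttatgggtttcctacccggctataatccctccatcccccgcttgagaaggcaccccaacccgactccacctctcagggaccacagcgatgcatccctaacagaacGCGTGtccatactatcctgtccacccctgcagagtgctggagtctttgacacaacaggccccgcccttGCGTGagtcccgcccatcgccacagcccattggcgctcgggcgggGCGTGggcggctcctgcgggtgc
Ldha, chr7:46845554-46845803 (+ strand): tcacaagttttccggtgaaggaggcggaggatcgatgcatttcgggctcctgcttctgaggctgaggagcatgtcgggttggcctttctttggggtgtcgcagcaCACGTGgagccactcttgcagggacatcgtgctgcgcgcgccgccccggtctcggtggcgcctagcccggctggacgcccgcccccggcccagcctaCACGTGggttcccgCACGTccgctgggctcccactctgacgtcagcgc
Vegfa, chr17:46032378-46032627 (- strand): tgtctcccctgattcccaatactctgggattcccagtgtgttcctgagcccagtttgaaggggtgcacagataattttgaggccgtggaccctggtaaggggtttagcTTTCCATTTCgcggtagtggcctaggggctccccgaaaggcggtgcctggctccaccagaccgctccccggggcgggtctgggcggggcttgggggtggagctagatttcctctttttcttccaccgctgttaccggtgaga

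Hk3 has 1 core match in these 250 bases and Hk2 has 2, Pfkp has 3 and Ldha 5, where a palindromic match counts once for each strand. Slc2a1 has 2. The Vegfa promoter shown holds no core match, and the core of that gene comes from a second RefSeq start inside it.

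The series also holds the authors' own Cuffdiff comparison of treated with untreated cells, which names no dose. Of the 37 genes, 28 were significant by the flag in the authors' deposited table. There 8 were higher and 20 lower, against 35.1% and 33.8% of the 12854 entries that the authors' deposited table tested. In the authors' deposited table the log2 fold change was 4.99 for Vegfa, 4.78 for Pfkfb3, 2.47 for Hif1a and 1.16 for Slc2a1, which were higher there as at 20 U/ml. The same held for Pfkp (0.88) and Slc16a3 (0.37). Other significant values in the authors' deposited table were opposite in sign to the ratios at 20 U/ml. Among them were Pfkm (-3.94), Pdk1 (-3.69), Ldha (-2.84), Pdk3 (-2.79), Pfkl (-2.45) and Gapdh (-1.26). Hk3 (0.01), Hk2 (0.16) and Slc2a6 (-0.13) were not significant in the authors' deposited table. The sources used here do not say which libraries entered that comparison, so it was not read as a repeat of any dose.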

How the data were processed

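RNA of mouse bone-marrow-derived macrophages was sequenced in 4 groups of 3 libraries. Per the submitters' processing notes, the tools included Cuffdiff 2.1.1, TopHat2 2.1.1 and Cufflinks 2.1.1, and the build was mm10. In FPKM, per the file headers, the authors gave 1 value for each group; the untreated column names no unit and was read as FPKM from its range, and the sources used here do not say whether libraries were pooled. A deposited Cuffdiff table adds each gene's log2 fold change with its q-value; its 2 columns of condition values match no group and were not used. Depth is unknown.

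Because there is 1 value per group, the planned limma tests could not be made, and no p-value or SD is given. Ratios are differences of log2(FPKM + 1). Entries with a mean of at least 1 FPKM and above 0 in each group were kept, 11580 of 46729, and 272 further entries with a 0 in some group were left out. A log2 ratio of at least 1 in size, a 2-fold difference, counted as higher or lower, and the ratio code was tested on simulated data. The genes and lists were chosen with earlier results of these data known. All 37 genes were named, and of each neighbouring list up to 3 of the largest ratios at 20 U/ml. Crebbp, Vhl, Ndrg1, Pdk2, P4ha1, Bnip3 and Bnip3l were added after their values were seen. A planned comparison of proteins was not made, and 1 planned promoter motif is not reported here. Gene positions come from GENCODE M21 (GRCm38, which mm10 is built on) and promoters from RefSeq. The sources used here do not say whether counting used strand, so genes that overlap a member cannot be told apart from it there. Examples are Unc5a at Hk3, Pitrm1 at Pfkp, Senp1 at Pfkm, Iffo1 at Gapdh and Ikbkg at G6pdx. Python 3.11.15, pandas 2.3.3 and numpy 2.4.6 were used.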

Additional observations from a re-analysis of the deposited data

How the results depend on the processing

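Shares in parentheses are those of all entries under the same setting. The 10 genes higher at 20 U/ml (6.51%) became 11 with a pseudocount of 0.1 (7.56%) or 0.01 (7.68%), and 9 with upper-quartile scaling (5.38%) or quantile normalization (5.68%). A 1.5-fold size rule gave 17 higher (12.6%) and 3 lower (9.60%) at 20 U/ml, 5 higher at 2 U/ml (5.35%), and 2 higher at 0.2 U/ml (11.6%), the last a smaller share than that of all entries. It gave 4 higher (5.77%) and 1 lower (13.2%) between 0.2 and 2 U/ml, and 11 higher (7.69%) between 2 and 20 U/ml. With a pseudocount of 0.1, 1 gene was lower at 20 U/ml (Slc2a3; 4.65%), 3 were higher at 2 U/ml (Hk3, Pfkfb3 and Vegfa; 3.32%) and 2 between 0.2 and 2 U/ml (Hk3 and Pfkfb3; 2.37%), and 0.01 gave the same counts of 1, 3 and 2. Upper-quartile scaling gave 1 lower at 20 U/ml (Eno2; 4.02%). Between 0.2 and 2 U/ml 2 were higher with upper-quartile scaling (1.70%) and 2 with quantile normalization (1.89%), and between 2 and 20 U/ml 1 with each (2.49% and 2.57%). Genes with a value above the one before at each dose, an alternative added after seeing the data, numbered 15 (9.28%), then 8 with upper-quartile (6.34%) and 6 with quantile scaling (6.70%). No called ratio of the 37 genes changed sign under these settings; filters on low values and on RNAs under 200 nt moved the background only, apart from 3 genes lost at a mean of 5 FPKM. No paired analysis was possible because the deposited table holds 1 value per group, and for the same reason no replicate could be left out. Without replicates or depth, ratios near 1 such as those of Pdk3, Pfkl and Vegfa cannot be told from the size rule.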

Other observations

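In the neighbouring lists, 3 of 106 entries were higher at 0.2 U/ml and at neither larger dose, chosen here after their values were seen; 3 of 106 is 2.83%, below the 5.23% of all entries that were higher at that dose. The merged entry of Fam129c and Pgls, the lactonase of the pentose phosphate pathway, was at 246, 507, 269 and 207 FPKM in dose order. Vhl, which recognises hydroxylated HIF1A, was at 28.9, 81.7, 44.5 and 30.9 FPKM, and Crebbp at 53.6, 224, 24.1 and 42.4 FPKM. None of the 37 genes passed at that dose, and the nearest was Hk2 at 0.80.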
